A study of Mus musculus with 4 samples.

Results

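The genes of fatty acid synthesis and desaturation were examined in the liver mRNA of F1 hybrid mice. The group was chosen by gene name and holds 10 genes, Fasn, Scd1, Elovl6, Elovl3, Acacb, Acly, Mlxipl, Gpam, Fads1 and Fads2. Of these, 9 were among the 8797 genes of the expression tables. Elovl3, an elongase of long-chain fatty acids, had no row and was not analysed here. All 9 listed genes also had a B6-allele frequency, the share of the allele-assigned reads that carried the B6 allele, which 3632 genes (41.3% of those listed) had in all 4 mice. The mice were females of 5 months from reciprocal crosses of the strains MSM/Ms (MSM) and C57BL/6 J (B6), so that every cell carried 1 genome of each strain. The MSM mother group was 2 mice born to an MSM dam sired by B6, and the B6 mother group was 2 mice with the strains of the parents exchanged. No mouse carried an engineered allele or received a treatment that the labels give. The alleles within a mouse shared the same cells, whereas the crosses differed in the strain of the mother and so in the parent each allele came from.

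Liver makes fatty acids from citrate that leaves the mitochondria. ATP citrate lyase (Acly) splits it to acetyl-CoA, acetyl-CoA carboxylases (Acaca and Acacb) form malonyl-CoA, and fatty acid synthase (Fasn) builds palmitate, which Elovl6 elongates to stearate and Scd1, a delta-9 desaturase, turns into monounsaturated fat. Fads1 and Fads2 are the delta-5 and delta-6 desaturases of polyunsaturated fatty acids, and Gpam starts the assembly of glycerolipids from acyl-CoA. Transcription of this pathway rises with feeding and insulin. It is known to be driven by Mlxipl (ChREBP), which answers to carbohydrate and binds paired E-boxes, and by Srebf1, which binds sterol regulatory elements.

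The 10 genes are protein-coding and lie on 4 chromosomes of mm10 in GENCODE M21. Of them 5 are on chromosome 19, namely Fads2 (chr19:10062765-10101746, minus strand), Fads1 (chr19:10182888-10196877, plus strand), Scd1 (chr19:44394455-44407879, minus strand), Elovl3 (chr19:46131897-46135694, plus strand) and Gpam (chr19:55067268-55127238, minus strand). Fads2 and Fads1 stand head to head with a gap of 81.1 kb between them. Chromosome 11 holds Acly (chr11:100476353-100528000, minus strand) and Fasn (chr11:120805846-120824547, minus strand), chromosome 5 holds Acacb (chr5:114146535-114250761, plus strand) and Mlxipl (chr5:135089890-135138382, plus strand), and Elovl6 is at chr3:129532355-129638495 on the plus strand. FPKM and allele frequency were per gene over its exons.

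RefSeq promoter windows of build GRCm38.p6 were found for 7 of the 10 genes, with several start sites for some. The bases upstream of the start site are shown for 3 of them, Mlxipl as the transcription factor of the group, and Fasn and Elovl6 as the genes in which every mouse had more MSM than B6 reads. These are reference (B6) sequences, written 5′ to 3′ on the strand of the gene. Capitals mark matches to the motifs searched on both strands, which were the E-box CACGTG, the sterol regulatory element TCACNCCAC, the CCAAT box CCAAT and the GC box GGGCGG, beside the TATA box TATAAA.
Mlxipl (chr5:135089640-135089889, plus strand): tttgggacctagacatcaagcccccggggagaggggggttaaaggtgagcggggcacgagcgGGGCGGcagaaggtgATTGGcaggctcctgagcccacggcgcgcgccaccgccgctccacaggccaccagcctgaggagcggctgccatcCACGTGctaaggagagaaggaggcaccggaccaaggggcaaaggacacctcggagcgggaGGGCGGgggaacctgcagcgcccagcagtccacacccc
Fasn (chr11:120824548-120824797, minus strand): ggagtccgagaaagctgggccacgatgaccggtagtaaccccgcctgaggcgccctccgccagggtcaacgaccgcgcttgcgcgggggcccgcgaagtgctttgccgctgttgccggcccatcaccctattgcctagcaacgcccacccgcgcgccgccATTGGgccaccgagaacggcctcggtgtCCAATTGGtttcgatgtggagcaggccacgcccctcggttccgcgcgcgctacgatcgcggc
Elovl6 (chr3:129532136-129532354, plus strand): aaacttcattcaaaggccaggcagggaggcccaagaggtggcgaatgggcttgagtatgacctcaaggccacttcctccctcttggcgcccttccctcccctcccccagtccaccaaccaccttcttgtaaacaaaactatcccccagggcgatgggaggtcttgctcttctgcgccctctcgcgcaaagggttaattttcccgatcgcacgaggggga

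The Mlxipl stretch held 1 E-box, 98 bases before the start site, with 1 CCAAT box and 2 GC boxes. The Fasn stretch held 3 CCAAT boxes, of which the pair at 62 and 59 bases before the start overlap on opposite strands. The Elovl6 stretch held none of the 5 motifs, which says only that these letters are not in this window. Over the windows of 300 bases, an E-box was found in 1 of the 7 genes (Mlxipl) and in 7.2% of all 32851 promoters, and a sterol regulatory element in 1 of 7 (another Mlxipl start site) and in 1.2% of all. A CCAAT box was found in 5 of 7 genes against 37.4% of all promoters, a GC box in 4 of 7 against 35.7%, and a TATA box in 1 of 7 (Acacb) against 13.6%. Mlxipl and Gpam had 2 windows each and were counted if either held the motif, whereas the shares of all promoters are per window. The 2 are thus not in like units, and they are a description of 7 genes.

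Levels per length spanned a wide range within the pathway. Scd1 was by far the most abundant gene of the group, with 1274 and 755 FPKM in the MSM mother mice and 649 and 564 FPKM in the B6 mother mice, and it ranked 110 among the 8797 genes by mean level. Fads2 (150.2 ± 35.8 FPKM, SD, n = 4), Fads1 (136 ± 29.8) and Mlxipl (107 ± 30.0) came next, and the spreads of these 3 overlapped. Acly (40.8 ± 5.49 FPKM), Fasn (35.0 ± 11.2), Gpam (26.1 ± 3.29), Acacb (22.6 ± 4.02) and Elovl6 (19.3 ± 4.51) made up the lower part, in which neighbours lay within their spread of each other. Scd1 alone gave 74.8% and 62.5% of the summed FPKM of the 9 genes in the MSM mother mice and 50.3% and 47.4% in the B6 mother mice. Within a mouse, the level of Scd1 was 57.2 and 24.4 times that of Fasn in the MSM mother mice and 13.3 and 14.8 times in the B6 mother mice, whereas the level of Fads2 stayed at 0.92 to 1.3 times that of Fads1.

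The first question was whether the B6 and MSM alleles of these genes were used unequally in the same liver. All B6-allele frequencies of the group lay between 0.422 and 0.605. None of the 9 genes had a mean at or above 0.8 or at or below 0.2, the thresholds used in the study's methods, which 3.19% of all genes with a frequency passed. Within this narrow range, Scd1 favoured the B6 allele and Elovl6 the MSM allele. When the log2 odds of B6 against MSM reads were tested with limma, 2 of 9 genes were called at an adjusted p under 0.05, against 36.2% of all 3632 genes. Called toward B6 was 1 gene (22.6% of all genes) and toward MSM 1 gene (13.6% of all).

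Scd1 had the most unequal allele use of the group. Its B6-allele frequency was 0.599 in both MSM mother mice and 0.590 and 0.605 in the B6 mother mice, so that the mice of both crosses lay together, all above the other 8 genes. The mean frequency was 0.598 ± 0.0063 (SD, n = 4). The log2 odds were 0.57 (SE 0.04, 95% interval 0.44 to 0.71, adjusted p = 0.00699 by limma), which is 1.49 times as many B6 as MSM reads, and 77.9% of all genes had smaller absolute log2 odds. Scd1 has related genes, and 2.58% of the 100-base stretches of its transcripts also occur in Scd2, Scd3, Scd4 or AC123853.3. The authors kept 1 alignment per read, so a small part of the Scd1 reads could have been placed at a relative, and the effect of this on the frequency was not tested. Elovl6, which supplies the stearate that Scd1 uses, went the other way. Its frequency was 0.458 and 0.437 in the MSM mother mice against 0.424 and 0.422 in the B6 mother mice, below 0.5 in all 4 mice. The log2 odds were -0.38 (SE 0.05, 95% interval -0.52 to -0.23, adjusted p = 0.0157), or 1.30 times as many MSM as B6 reads. Both calls were lost when certain mice were left out. Leaving out any mouse raised the adjusted p of Elovl6 above 0.05 (0.0601 to 0.099), and leaving out a mouse other than MSM mother replicate 2 did so for Scd1 (0.0513 to 0.065), while the log2 odds stayed at -0.41 to -0.35 for Elovl6 and at 0.55 to 0.60 for Scd1.

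Fasn and Mlxipl stood to 1 side of equal use without passing the threshold. The Fasn frequency was 0.451 and 0.449 in the MSM mother mice against 0.426 and 0.480 in the B6 mother mice, all below 0.5, with log2 odds of -0.28 (SE 0.07, adjusted p = 0.0632) and 1.22 MSM reads per B6 read. Centred on the median of each mouse, these log2 odds were -0.34 with an adjusted p of 0.0432. The B6 mother mice were the lowest and the highest of the 4, so that the spread of Fasn within a cross (0.027) was the widest of the group. Mlxipl was at 0.528, 0.536, 0.526 and 0.529 in the same order of mice, all above 0.5, with log2 odds of 0.17 (SE 0.04, adjusted p = 0.0567) and 1.13 B6 reads per MSM read. Centred in the same way, the log2 odds of Mlxipl were 0.12 (adjusted p = 0.134 by limma). An antisense gene, Gm43500, overlaps 235 exon bases (4.2%) of Mlxipl on the opposite strand, and the libraries kept the strand.

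The other 5 genes were close to equal use. Acly, the entry to the pathway, was above 0.5 in all mice but by little, at 0.507 to 0.514 (mean 0.512 ± 0.0031), and its log2 odds of 0.07 had a 95% interval of -0.06 to 0.19. Acacb (mean 0.490), Gpam (0.496), Fads1 (0.496) and Fads2 (0.509) each had mice on both sides of 0.5. Their intervals on the log2 odds scale were -0.23 to 0.11 for Acacb, -0.16 to 0.11 for Gpam, -0.20 to 0.15 for Fads1 and -0.08 to 0.18 for Fads2. In all, 3 genes (Scd1, Mlxipl and Acly) were above 0.5 in all 4 mice, as were 33.9% of all genes, and 2 (Fasn and Elovl6) were below it in all 4, as were 22.8% of all genes. The median frequency over all genes was itself above 0.5 in every mouse, at 0.509 to 0.512. Acly lay near that median, and its log2 odds centred on the median of each mouse were 0.01. The median of the absolute log2 odds was 0.07 over the 9 genes and 0.24 over all genes. Mice of the same cross were close to each other for these genes, with a median within-cross SD of the frequency of 0.00811, against 0.0253 over all genes and 0.0171 over the tertile with the highest expression. Their levels were not as close, with a median within-cross SD of log2(FPKM + 1) of 0.17 against 0.128 over all genes, and the SDs of Scd1 (0.39), Acacb (0.30) and Fasn (0.29) were larger than those of 95.9%, 91.3% and 90.0% of genes.

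**Figure D1:**
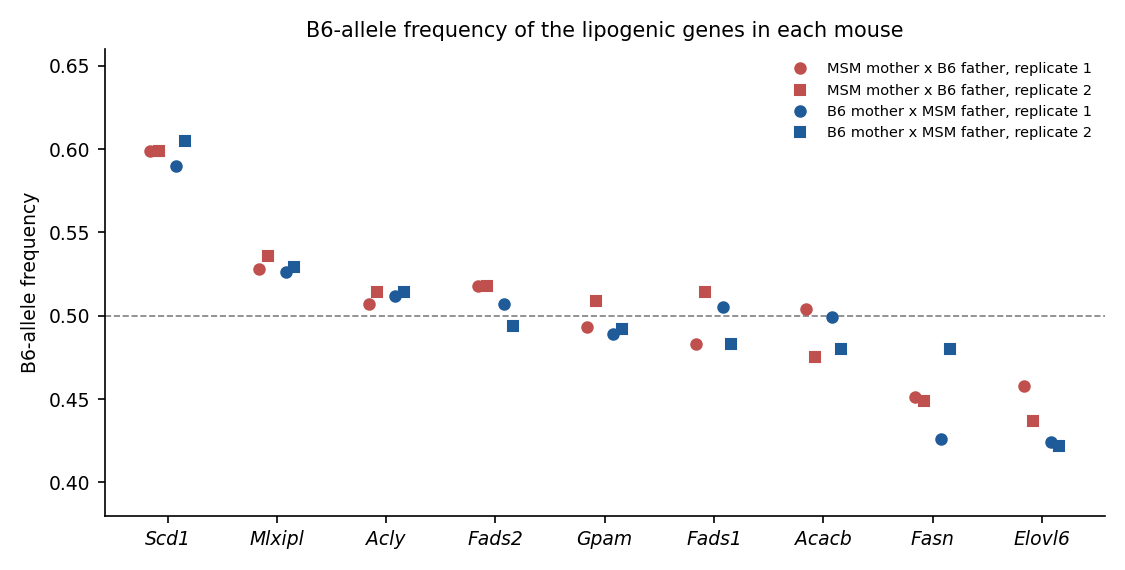
B6-allele frequency (share of allele-assigned reads, vertical axis from 0.38 to 0.66) of the 9 genes, ordered by mean, with 1 point per mouse, red for an MSM mother and blue for a B6 mother. The dashed line marks equal use at 0.5. The 4 mice lie at 0.590 to 0.605 for Scd1 and at 0.422 to 0.458 for Elovl6.

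**Figure D2:**
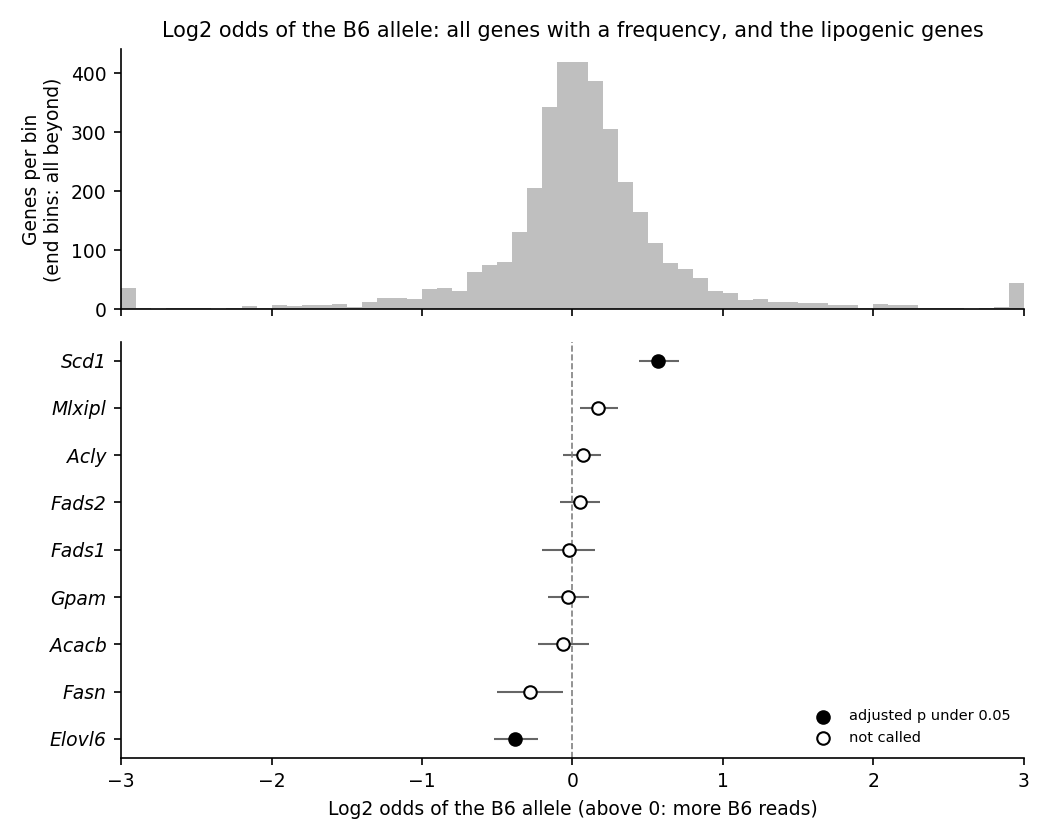
Log2 odds of B6 against MSM reads, on the same horizontal axis for all 3632 genes (histogram, upper panel, with genes beyond -3 or 3 counted in the end bins) and for the 9 genes (lower panel, estimate from limma with its 95% interval). Filled points, Scd1 at 0.57 and Elovl6 at -0.38, had an adjusted p under 0.05.

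The second question was whether allele use depended on which parent gave the allele. None of the 9 genes was called between the crosses by limma (0.0826% of all genes were, 3 of 3632), and at an unadjusted p under 0.05 the count was also 0, against 190 of all genes. The crosses differed by at most 0.14 in log2 odds, in Elovl6 (SE 0.09, adjusted p = 0.881), whose mean frequency was 0.447 in the MSM mother mice against 0.423 in the others. The frequencies of 3 genes, Elovl6, Gpam and Fads2, did not overlap between the crosses, and in each the MSM mother mice were higher, as in 18.4% of all genes, while 0 of 9 were higher in the B6 mother mice without overlap, against 15.9% of all. For Fads2 the frequency was 0.518 in both MSM mother mice against 0.507 and 0.494. For Gpam it was 0.493 and 0.509 against 0.489 and 0.492. The allele that Scd1 favoured was the same whichever parent gave it, with a mean of 0.599 when the B6 allele came from the father and 0.598 when it came from the mother.

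The third question was whether the level of the genes differed with the direction of the cross. None of the 9 genes passed the threshold, although the mice of the crosses lay apart in 8 of them. In 7 of 9 genes (Fasn, Elovl6, Acly, Mlxipl, Gpam, Fads1 and Fads2) both MSM mother mice were below both B6 mother mice, against 19.4% of all genes, and in 1 gene (Scd1) both were above, against 23.0% of all. Acacb was the only one of the 9 whose mice overlapped. The median log2 fold change, MSM mother minus B6 mother, was -0.50 over the 9 genes and 0.02 over all genes. The limma fit on log2(FPKM + 1) called 0 of 9 genes, and it called 0.0455% of all genes (4 of 8797). At an unadjusted p under 0.05 there were 5 of the 9 genes, all lower with an MSM mother, against 4.41% of all genes in that direction. With 2 mice against 2, an exact permutation test of a single gene cannot give a p below 0.333. The direction of the cross was shared by all genes of a mouse, so the 9 genes are not 9 independent observations of it. The litter, feeding state and time of collection of each mouse are not given, so they cannot be told apart from the direction of the cross.

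Mlxipl had the lowest unadjusted p of the group. It was at 79.9 and 84.4 FPKM in the MSM mother mice against 141 and 124 FPKM in the B6 mother mice, with a log2 fold change of -0.68 (SE 0.15, 95% interval -1.04 to -0.32, limma adjusted p = 0.354). Fasn was at 22.3 and 30.9 FPKM against 48.7 and 38.1 FPKM, a log2 fold change of -0.69 (SE 0.21, 95% interval -1.20 to -0.19, adjusted p = 0.463). In both genes the lowest B6 mother mouse was above the highest MSM mother mouse. The desaturases of polyunsaturated fatty acids lay apart in the same direction. Fads1 was at 108 and 114 FPKM against 170.3 and 152 FPKM (log2 fold change -0.53, SE 0.15, adjusted p = 0.452), and Fads2 at 123 in both MSM mother mice against 157 and 198 FPKM (-0.52, SE 0.17, adjusted p = 0.504). Elovl6 was at 18.6 and 13.2 FPKM against 23.5 and 21.8 FPKM (-0.50, SE 0.18, adjusted p = 0.530).

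Acly, Gpam and Acacb differed less. Acly was at 37.1 and 36.4 FPKM against 48.4 and 41.1 FPKM (log2 fold change -0.27, 95% interval -0.61 to 0.07), and Gpam at 22.4 and 25.2 FPKM against 26.3 and 30.4 FPKM (-0.24, interval -0.58 to 0.10). Acacb, the carboxylase of the mitochondrial surface, was at 18.5 and 25.9 FPKM against 26.3 and 19.8 FPKM, and its log2 fold change of -0.06 had an interval of -0.57 to 0.46. Its sign changed with the mice used, to 0.14 without B6 mother replicate 1 and to 0.17 without MSM mother replicate 1. Scd1 had a log2 fold change of 0.70 (SE 0.28, 95% interval -0.00 to 1.39, adjusted p = 0.561), and its mice within the MSM mother group were themselves far apart, at 1274 and 755 FPKM. Its log2 fold change was 0.32 without MSM mother replicate 1 and 1.07 without MSM mother replicate 2. Leaving out a mouse gave -0.73 to -0.27 for Elovl6, with the extremes without MSM mother replicates 1 and 2. It gave -0.39 to -0.16 for Acly and -0.34 to -0.14 for Gpam, with the extremes without either B6 mother mouse. Without Scd1, the other 8 genes summed to 429.9 and 454 FPKM in the MSM mother mice against 641 and 626 FPKM.

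**Figure D3:**
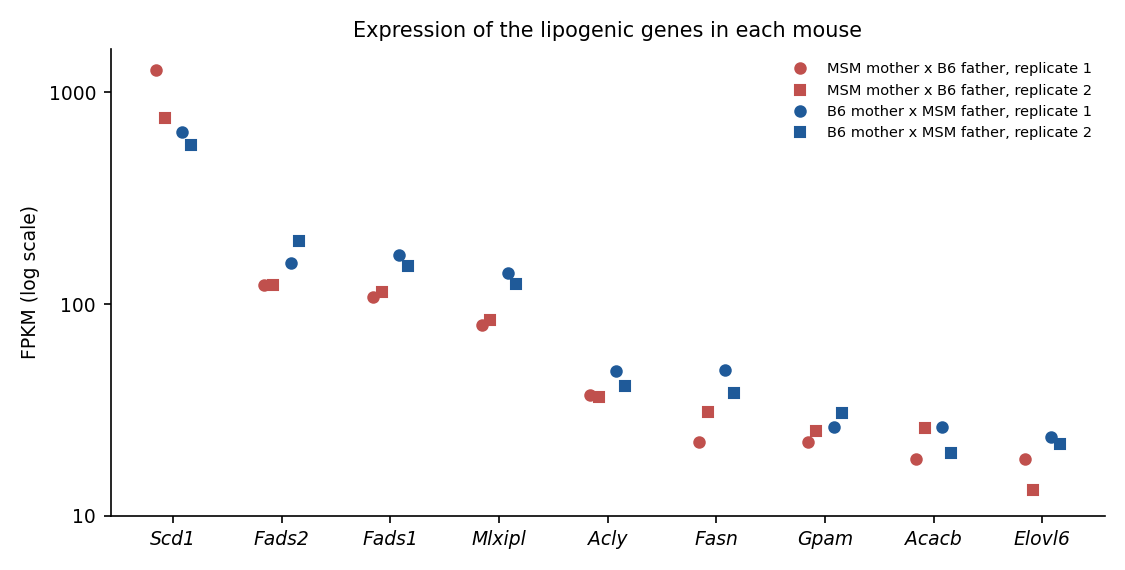
Level of the 9 genes in FPKM (log scale), ordered by mean, with 1 point per mouse, red for an MSM mother and blue for a B6 mother. The red points lie below the blue ones in 7 genes, above them in Scd1, and among them in Acacb.

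The libraries differed in make-up. MSM mother replicate 1 had the largest sum of FPKM over all genes (671875, against 529024 to 572780 in the other 3) and the largest share in its 10 most abundant genes (19.5% against 13.4% to 14.7%), while median-ratio scaling factors were 0.988 to 1.025. The same mouse was the lowest of the 4 in 6 of the 9 genes and the highest in Scd1, and B6 mother replicate 1 was the highest in 6. Under median-ratio scaling or quantile normalization, settings chosen after the data were seen, 7 genes were lower with an MSM mother without overlap, and Scd1 was higher. Leaving out a mouse cannot make separated mice overlap, so the 7 to 8 genes found lower without any 1 mouse are no check of this. Markers of other liver cells were also compared, and limma called none of them between the crosses. Of all genes, 19.4% were lower and 23.0% higher with an MSM mother without overlap, the shares to set beside the marker counts. Of the 11 macrophage and Kupffer cell markers 9 were listed, 8 of them lower in both MSM mother mice and 0 higher, and they summed to 256 and 219 FPKM against 319 and 286 FPKM, with Adgre1 and Marco not listed. C1qb was the most abundant of them (45.7 FPKM on average), and the macrophage genes Csf1r (12.8 and 12.6 against 20.9 and 17.8 FPKM) and Cd68 (5.55 and 5.16 against 9.68 and 7.82 FPKM), chosen after their values were seen, were among the lower ones. Of 9 sinusoidal endothelial markers, 5 were lower without overlap and 0 higher, with sums of 209 and 192 against 216 and 228 FPKM, led by Clec4g (64.2 FPKM). Of the 7 listed hepatocyte markers of 8, led by Apoa1 (6313 FPKM), 5 were higher without overlap and 0 lower, with sums of 28311 and 25151 against 18821 and 22782 FPKM. Stellate cell markers (6 of 9 listed, led by Ecm1 at 119 FPKM) summed to 259 and 241 against 225 and 248 FPKM, and of the cholangiocyte markers only Spp1 (12.1 FPKM) of 6 was listed. Of 10 adipocyte markers, 3 were listed, with sums of 969 and 893 against 732 and 784 FPKM of which most was Car3 (821 FPKM on average), and Adipoq and Plin1 were not listed. In bulk liver, fewer cells of a type and less RNA per cell cannot be told apart, and the part of cell make-up in the differences of the lipogenic genes was not tested.

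The rest of the pathway was read from lists of genes without the 9 members. No gene of these lists was called between the crosses, for expression or for allele frequency. Among genes of precursor supply and fatty acid synthesis (17 of 18 listed), both MSM mother mice were below the B6 mother mice in 2 and above them in 4 (19.4% and 23.0% of all genes). The median log2 fold change was 0.13. The 2 lower ones were Acaca, the cytosolic carboxylase that supplies Fasn (11.1 and 13.9 against 18.8 and 17.0 FPKM, log2 fold change -0.49, SE 0.14, adjusted p = 0.463), and Mid1ip1, a protein that activates acetyl-CoA carboxylase (16.3 and 15.6 against 23.7 and 27.4 FPKM, -0.64, adjusted p = 0.339), both named after their values were seen. Thrsp, the lipogenic Spot 14 protein and the most abundant gene of that list, lay the other way, at 126 and 204 FPKM against 55.6 and 84.5 FPKM (1.22, SE 0.30, adjusted p = 0.412). Taldo1, of the pentose phosphate pathway, was at 140.1 and 98.9 against 98.4 and 91.4 FPKM, and its mean frequency of 0.474 was not called (adjusted p = 0.131), like those of the other 5 genes of the list with a frequency.

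In elongation and desaturation, 4 of the 5 non-members with a frequency were called, 2 toward each allele (36.2% of all genes were called). Scd3, a desaturase next to Scd1, had B6-allele frequencies of 0.942, 0.962, 0.895 and 0.997 (log2 odds 4.60, SE 0.70, adjusted p = 0.0223), but at a mean of only 2.93 FPKM. Its level in the same order of mice was 1.55, 0.819, 0.998 and 8.34 FPKM, so most of that mean came from B6 mother replicate 2. Scd3 also shares sequence with Scd1. Fads3, the relative of Fads1 and Fads2 in the same gene cluster, lay at the opposite end with mice between 0.188 and 0.264. That is 3.74 MSM reads per B6 read (log2 odds -1.90, SE 0.13, adjusted p = 0.00581), again at a low mean of 4.42 FPKM. Fads1 and Fads2, at far higher levels, were near 0.5. Fads6 was at 0.616 to 0.631 (0.74, SE 0.04, adjusted p = 0.00481), and Degs1, a ceramide desaturase, had a mean of 0.466 (-0.20, adjusted p = 0.0479). In expression, 3 of the 10 listed non-members were lower without overlap with an MSM mother and 1 was higher (19.4% and 23.0% of all genes). Of the lower ones, Elovl2, which elongates polyunsaturated fatty acids, was at 80.1 and 86.9 against 132 and 137 FPKM (log2 fold change -0.68, SE 0.14, adjusted p = 0.340) and was named after its values were seen. In acyl activation and glycerolipid assembly (14 of 22 listed), 1 gene was lower and 2 were higher without overlap (19.4% and 23.0% of all genes). Of the 5 with a frequency, 1 was called for imbalance. This was the X-linked acyl-CoA synthetase Acsl4 (0.340, 0.511, 0.299 and 0.250, log2 odds -0.93, SE 0.21, adjusted p = 0.0498), with mice on both sides of 0.5. In females the share of an X-linked gene also depends on which X chromosome is active in each cell, which was not measured. Lpin1, the phosphatidate phosphatase, was at 31.2 and 196 FPKM against 16.6 and 23.1 FPKM (1.95, SE 0.79, adjusted p = 0.561), and was named after its values were seen for the spread within the MSM mother group. Its log2 fold change was 3.26 without MSM mother replicate 1 and 0.64 without MSM mother replicate 2, each with 1 mouse left in that group.

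Of the regulators of lipogenesis other than Mlxipl, 30 of 33 were listed. Both MSM mother mice were below both B6 mother mice in 10 of them and above in 1 (19.4% and 23.0% of all genes), with 19 overlapping and a median log2 fold change of -0.16. Srebf1, the sterol regulatory element-binding factor that drives lipogenic genes after insulin, was at 33.4 and 52.5 FPKM against 80.0 and 100.3 FPKM (log2 fold change -1.08, SE 0.24, adjusted p = 0.365). Irs2, an adaptor of the insulin receptor, was at 2.54 and 2.56 FPKM against 7.60 and 7.03 FPKM (-1.23, SE 0.11, adjusted p = 0.0826), and Irs1 at 2.31 and 2.20 FPKM against 4.34 and 3.65 FPKM (-0.62, adjusted p = 0.354). These 3 genes were named after their values were seen, and none had an allele frequency. Of the 12 regulators with a frequency, 5 were called, 2 toward B6 and 3 toward MSM (36.2% of all genes were called). The 4 with the largest log2 odds were Trib3, an inhibitor of insulin signalling (mean frequency 0.376, adjusted p = 0.00821), Mbtps1, the protease that first cuts SREBP (0.434, adjusted p = 0.0158), Insig2, which holds SREBP in the endoplasmic reticulum (0.565, adjusted p = 0.0290), and the hepatocyte factor Hnf4a (0.542, adjusted p = 0.0300).

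**Figure D4:**
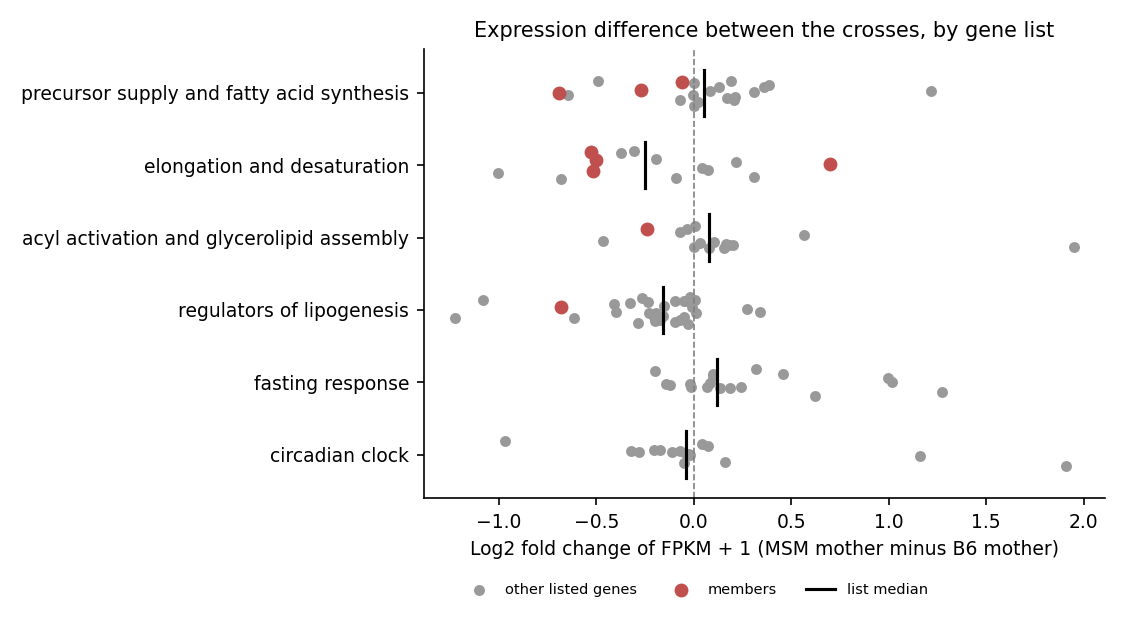
Log2 fold change of FPKM + 1, MSM mother minus B6 mother, for every listed gene of 6 gene lists, 1 point per gene, with the 9 members in red and the median of each list, members included, as a black line. Vertical position within a list is random spread. Members lie at -0.69 to -0.06 except Scd1 at 0.70.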

How the data were processed

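Liver poly(A) RNA of 4 mice was sequenced with strand kept. The authors used Trim Galore and Tophat2, with strain SNPs masked in the mm10 reference and 1 alignment kept per read, and deposited FPKM per gene. For the deposited fraction, the authors split reads by allele with SNPsplit, counted them with Cuffdiff and divided B6 reads by the sum of both alleles. Tool versions are not given in the sources used here. No read counts were used, so the depth behind a value is unknown and errors are the spread between mice.

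Groups came from the sample labels. Tests used limma 3.58.1 in R 4.3.3, two-sided, Benjamini-Hochberg adjusted over all genes, threshold 0.05. B6-allele frequencies, held within 0.01 and 0.99, were fitted as log2 odds in a model with cross as a sum-coded term, whose intercept gave allelic imbalance. Expression was fitted on log2(FPKM + 1) with a variance trend, which understates changes of low genes. The mean FPKM minimum of 1 removed no gene. The fits were also run on simulated data whose planted changes were larger than any estimate of the members. That run says nothing about finding changes as small as theirs. Promoters and positions came from RefSeq and GENCODE M21. Other steps used Python 3.11.15.

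The 10 members and all lists were chosen with earlier results of these data known. Named genes were all members and, per list, up to 4 called non-members with the largest estimate, or the 2 most abundant where none was called. Genes outside this rule are marked. Alternatives were other scalings, limits, filters and pseudocounts, a replicate block, and each mouse left out.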

Additional observations from a re-analysis of the deposited data

How the results depend on the processing

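Calls of allelic imbalance were fewer without a mouse or with a replicate block. The count among the 9 genes was 2, and 1 with a replicate block and 0 to 1 without a mouse. Over all genes it was 1316, and 775 with the replicate block and 181 to 514 without a mouse, where the cross left with 1 mouse was assumed to vary like the other. Elovl6 had an adjusted p of 0.0524 with the block. Mlxipl passed the threshold when genes under a mean FPKM of 5 were left out (0.0397) and with a variance trend (0.0308). It did not pass with the block (0.123) or when centred on the median of each mouse (0.134). Centring moved all calls from 822 toward B6 and 494 toward MSM to 705 and 604, and Fads2 from 0.05 to -0.0034. The log2 odds of Fads1 were -0.07 to 0.02 without a mouse. Between the crosses, frequency calls over all genes were 3, and 0 to 6 without a mouse. Expression calls over all genes were 4, and 13 to 21 without a mouse. The log2 fold change of Acacb was -0.29 to 0.17 without a mouse.

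Nothing in the labels ties mice of the same replicate number. With only 2 pairs, differences of replicate 1 minus 2 correlated at 0.004 in log2(FPKM + 1) and at 0.146 in log2 odds between the crosses. The replicate block called 285 genes for expression, 133 higher and 152 lower with an MSM mother, and 1 of the 9, Fasn (-0.69, adjusted p = 0.0383). It also called Thrsp, Pck1, Srebf1, Irs1, Irs2, Mid1ip1, Lpin1, Cd68 and Nr1d1. It ended the imbalance calls of Mbtps1, Insig2, Hnf4a, Degs1, Acsl4, Acadm and Bhlhe40 (adjusted p 0.0558 to 0.111). Centring ended those of Hnf4a (0.0555) and Acadm (0.0769), and limits of 0.02 to 0.98 that of Acsl4 (0.0508). Of the 15 other list genes named as called for imbalance, 13 lost the call without at least 1 mouse, and Fads3 and Cyp4a14 kept it without any mouse. The block adds a term to a fit of 4 mice, so it leaves fewer degrees of freedom, as does leaving out a mouse. The errors of limma then rest more on the spread shared over genes. Lpin1 was called with the block although its MSM mother mice were at 31.2 and 196 FPKM. Other causes of these changes were not tested.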

Other observations

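The fasting response, which is known to be high when lipogenesis is low, had 18 of its 20 genes listed. Both MSM mother mice were above both B6 mother mice in 9 of them and below in 0 (23.0% and 19.4% of all genes), with a median log2 fold change of 0.12 against 0.02 over all genes, and limma called none between the crosses. The gluconeogenic enzyme Pck1 was at 989.7 and 2045 FPKM in the MSM mother mice against 405 and 852 FPKM in the B6 mother mice (log2 fold change 1.27, SE 0.47, adjusted p = 0.539), and its log2 fold change was 0.74 to 1.81 without a mouse. For allele use, 4 of its 10 genes with a frequency were called, against 36.2% of all genes. Cyp4a14, a fatty acid omega-hydroxylase, was almost wholly from the B6 allele (mean frequency 0.992, adjusted p = 1.9e-04), in a family of similar genes whose reads could be placed at a relative. Its relative Cyp4a10 favoured the MSM allele (0.424, adjusted p = 0.0121), and Pck1 (0.580, adjusted p = 0.0108) and Acadm, of fatty acid oxidation (0.538, adjusted p = 0.0371), favoured B6.

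Of 19 circadian clock genes 16 were listed, 3 lower without overlap with an MSM mother and 0 higher (19.4% and 23.0% of all genes), with a median log2 fold change of -0.04. Its ends, named after their values were seen, were Nr1d1 at -0.97 and Ciart at 1.91, both repressors of the clock, and limma called neither. The mice of Nr1d1 lay apart between the crosses (37.7 and 21.5 FPKM with an MSM mother against 66.7 and 48.2 FPKM), whereas those of Ciart overlapped. The B6 allele was favoured in both clock genes with a frequency, Per3 (0.607, adjusted p = 0.0125) and Bhlhe40 (0.584, adjusted p = 0.0210). The time of day and the feeding state at collection are not given in the sources used here.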
